A study of Mus musculus with 6 samples.

Results

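The tibial epiphysis of a young mouse holds marrow as well as cartilage and bone, and 9 genes that mark the megakaryocytes and platelets of that marrow were followed in the RNAseq libraries of LS1 and Control mice. The genes were *Pf4*, *Ppbp*, *Itga2b*, *Gp1ba*, *Gp1bb*, *Gp5*, *Gp6*, *Gp9* and *Treml1*. They were chosen by name, as genes known to be made by megakaryocytes, but with earlier results of these data known. Each was matched to 1 Ensembl identifier, which gave 9 of the 47729 genes in the deposited table. All 9 had lower mean levels in LS1 than in Control, with log2 fold changes between -0.94 and -0.28, but 0 of the 9 had an adjusted p under 0.05.

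Control (ICR) is the random-bred mouse line, and Longshanks 1 (LS1) was bred beside it by selection for long tibiae relative to body mass. The 3 Control and the 3 LS1 mice came from different families of a single generation, were untreated and were 14 days old, and neither line carries an engineered allele. Each library was made from polyadenylated RNA of 1 mouse, whose left and right proximal tibial epiphyses were pooled, and the tissue ran from the articular cartilage through the ossification center and the growth plate to the metaphysis. LS1 is 1 selected line, so selection on the tibia cannot be told apart from other differences that its ancestry carries.

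Megakaryocytes are the large, polyploid cells of the marrow that shed platelets into the blood. Their surface carries the receptors that platelets later use to stick to damaged vessels and to each other, and their alpha granules store chemokines and clotting proteins. Megakaryocytes share a progenitor with red blood cells, and transcription factors such as GATA1 and TAL1 act in both lineages.

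The libraries held 68803249 to 76581954 reads in Control and 82227711 to 88745366 in LS1, and the member with the fewest reads had 213 of them in its lowest library, so counting error was small beside the differences between mice. On the first principal component of the genes tested, LS1 replicate 3 lay at -4.29, between the Control libraries (-41.5 to -22.1) and the other LS1 libraries (43.7 and 50.1). The labels give no sex. *Xist*, the RNA of the inactive X chromosome, had 70194 to 71731 normalized counts in Control replicates 1 and 2 and LS1 replicate 2 and 99.8 to 221 in the other 3 libraries, where the Y-linked gene *Ddx3y* had 6723 to 12856 against 32.1 to 39.4. Female-type and male-type libraries were therefore present in both groups, 2 and 1 in Control and 1 and 2 in LS1. Interferon-stimulated genes separated the LS1 mice, since the median of 12 such genes relative to the Control mean was 2.004 and 3.31 on the log2 scale in LS1 replicates 1 and 2 and -0.14 in LS1 replicate 3.

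The sequence just upstream of the start is shown for 5 of the genes, picked because these stretches hold the letters read by GATA and ETS factors. These families include known regulators of megakaryocytes. The windows are the 250 bases before the RefSeq start on GRCm38.p6, written 5′ to 3′ on the strand of the gene. Capitals mark the GATA letters, which are AGATAA or TGATAA, and the ETS letters, which are AGGAAG or CGGAAG, each searched on both strands, so that a match on the other strand appears as its reverse complement. *Gp1ba* (chr11:70638872-70639121, plus strand) and *Gp5* (chr16:30310782-30311031, minus strand) hold both kinds. *Gp6* (chr7:4397745-4397994, minus strand) holds GATA letters alone, and *Pf4* (chr5:90772185-90772434, plus strand) and *Gp9* (chr6:87777820-87778069, plus strand) hold ETS letters alone. No annotated exon lies in these 5 windows. The windows of *Itga2b* and *Gp1bb* also hold ETS letters, but exons of *Itga2b* and of *Sept5* lie in them, and they are not shown.
Gp1ba: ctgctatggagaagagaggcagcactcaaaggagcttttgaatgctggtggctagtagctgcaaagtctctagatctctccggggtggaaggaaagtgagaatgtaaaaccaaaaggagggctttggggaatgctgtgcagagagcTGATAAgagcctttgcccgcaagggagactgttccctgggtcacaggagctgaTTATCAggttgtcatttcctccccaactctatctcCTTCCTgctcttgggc
Gp5: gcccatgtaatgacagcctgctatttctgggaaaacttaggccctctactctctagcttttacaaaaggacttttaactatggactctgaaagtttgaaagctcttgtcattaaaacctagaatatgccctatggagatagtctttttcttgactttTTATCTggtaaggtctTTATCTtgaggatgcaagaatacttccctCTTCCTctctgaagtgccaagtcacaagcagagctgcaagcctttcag
Gp6: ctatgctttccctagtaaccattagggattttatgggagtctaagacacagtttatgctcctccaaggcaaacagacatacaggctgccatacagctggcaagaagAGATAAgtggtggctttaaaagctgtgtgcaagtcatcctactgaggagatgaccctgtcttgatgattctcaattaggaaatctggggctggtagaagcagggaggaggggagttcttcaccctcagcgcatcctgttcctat
Pf4: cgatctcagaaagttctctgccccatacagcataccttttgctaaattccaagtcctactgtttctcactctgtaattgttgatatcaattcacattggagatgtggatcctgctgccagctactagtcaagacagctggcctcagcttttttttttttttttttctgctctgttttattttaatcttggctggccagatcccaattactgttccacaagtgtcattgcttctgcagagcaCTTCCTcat
Gp9: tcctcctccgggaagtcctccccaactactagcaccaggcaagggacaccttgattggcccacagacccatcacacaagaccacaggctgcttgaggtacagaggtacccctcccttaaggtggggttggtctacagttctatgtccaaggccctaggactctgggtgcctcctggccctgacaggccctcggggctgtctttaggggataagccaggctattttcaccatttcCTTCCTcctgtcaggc

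In the window of *Gp1ba* the GATA letters began 104 and 51 bases before the start and the ETS letters 16 bases before it. In that of *Gp5* they began 93 and 77 bases and 48 bases before the start. *Pf4* and *Gp9* held ETS letters 9 and 16 bases before the start, and *Gp6* held GATA letters 144 bases before it. GATA letters were found in 3 of the 9 members, against 16.6% of 32851 mouse promoter windows of the same length, and ETS letters in 6 of 9, against 39.2%. Both were found in 2 of 9, against 5.49%. The windows of *Ppbp* and *Treml1* held neither. In the windows of the members the GATA and ETS letters did not overlap each other. These matches describe the letters of the windows. Binding of a factor was not measured, and a link between the letters and the levels of the members was not tested.

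Levels of the 9 genes were compared with each other as RPKM, the reads of a gene scaled by its exon length and by the total reads of the library. The genes of the alpha granule chemokines stood far above the receptor genes. *Ppbp* had a median level of 138 over the 6 libraries (84.1 to 231) and *Pf4* one of 111 (79.7 to 169). *Itga2b* followed with a median of 12.7 (6.02 to 19.3), and its highest library was below the lowest of *Pf4*. *Gp9* (9.42), *Gp1bb* (5.43), *Gp5* (5.18), *Treml1* (4.35) and *Gp1ba* (4.22) formed a group in which the ranges of neighbours overlapped, as did those of *Itga2b* and *Gp9* and those of *Ppbp* and *Pf4*. *Gp6* was lowest, with a median of 1.25 (0.771 to 1.84), below every library of *Gp1ba* (2.34 to 6.30). *Pf4* and *Ppbp* together took 59.2% to 71.0% of the reads of the 9 genes in a library. The plot of levels by gene shows this order with each library as a point.

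**Figure D1:**
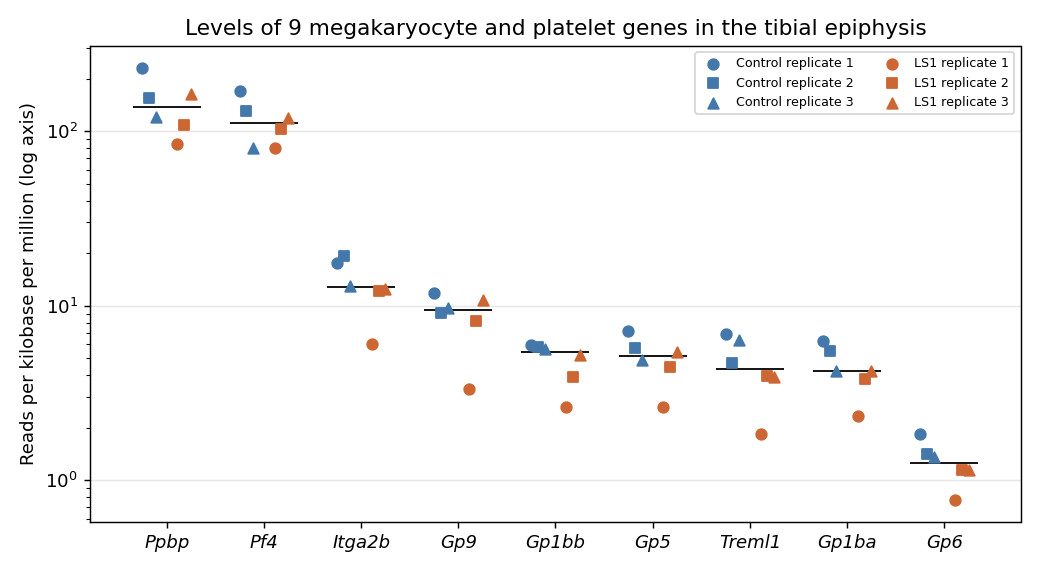
Level of each of the 9 genes in each library (RPKM on a log axis), with Control in blue, LS1 in orange and black lines at the median of the 6 libraries. *Ppbp* (138) and *Pf4* (111) lie above all receptor genes, *Gp6* (1.25) lies lowest, and the orange circle of LS1 replicate 1 is the lowest point of every gene.

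For the comparison of LS1 with Control, the normalized count (reads divided by the size factor of the library) was used, on log2(normalized count + 1) with limma and Benjamini-Hochberg adjustment over the 19308 genes whose mean reached 20 reads. All 9 members passed that filter. A limma adjusted p under 0.05 was reached by 0 of the 9 members, against 0.0725% of all genes tested in either direction and 0.0622% with a lower level in LS1. By edgeR and by DESeq2 on the recovered reads it was also 0 of 9, where the shares of all genes tested were 0.0363% and 2.58%. An unadjusted p under 0.05 with a lower level in LS1 was found for 5 of 9 members with limma, against 5.86% of all genes tested, for 5 with edgeR, against 5.9%, and for 6 with DESeq2, against 6.19%. The fitted change was below 0 in 9 of 9 members, against 49.3% of all genes tested. The highest LS1 library was below the lowest Control library for 4 of 9 members, against 8.94%. The median log2 fold change of the members was -0.60, against 0.005 over all genes tested. Because the members were chosen with earlier results of these data known, these comparisons with all genes are a description and not a test. For a single gene, an exact permutation test of 3 mice against 3 cannot give a p below 0.1. In bulk tissue, fewer megakaryocytes and less of each RNA per megakaryocyte cannot be told apart.

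Leaving out libraries changed the size of these values, while all 9 members were lower in LS1 each time. Their median log2 fold change was -0.35 without LS1 replicate 1 and -0.81 without LS1 replicate 3. The number of members with an unadjusted p under 0.05 from limma was 2 without LS1 replicate 1, 1 without Control replicate 1, 2 without Control replicate 2 and 8 without LS1 replicate 3. The shares of all genes tested with such a p and a lower level in LS1 were 5.62%, 4.07%, 3.76% and 7.55% in these fits. With Y-linked expression as a covariate, an alternative added after the data were seen, the median was -0.51 and 2 members had an unadjusted p under 0.05 from limma, against 5.53% of all genes tested in that direction. Among the female-type libraries, LS1 replicate 2 was below Control replicates 1 and 2 in 9 of 9 members. Among the male-type libraries, LS1 replicate 1 was below Control replicate 3 in 9 of 9 members, and LS1 replicate 3 was below it in 4 and above it in 5.

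*Pf4* (ENSMUSG00000029373, chr5:90772435-90773383, plus strand of GRCm38) codes for platelet factor 4, a chemokine of the alpha granules that binds heparin. Control replicates 1, 2 and 3 had 9424, 7192 and 4511 normalized counts, and LS1 replicates 1, 2 and 3 had 4502, 5711 and 6680. The groups overlapped, and the lowest Control library was level with the lowest LS1 library. The Control mean was 7042 ± 2460 (SD, n = 3) and the LS1 mean 5631 ± 1091 (SD, n = 3), with a log2 fold change of -0.28 (SE 0.25, 95% interval -0.85 to 0.29, limma adjusted p = 0.679). This was the smallest change of the 9 genes, and it was -0.04 without Control replicate 1, -0.57 without Control replicate 3, -0.13 without LS1 replicate 1 and -0.12 with the Y-linked covariate.

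*Ppbp* (ENSMUSG00000029372, chr5:90768518-90770063, plus strand) lies just upstream of *Pf4* on the same strand and codes for pro-platelet basic protein, the precursor of chemokines that attract neutrophils. It had 19358, 12867 and 10235 normalized counts in Control and 7129, 9106 and 13773 in LS1. LS1 replicates 1 and 2 were below every Control library, and LS1 replicate 3 was above Control replicates 2 and 3. The log2 fold change was -0.50 (SE 0.28, 95% interval -1.15 to 0.15, limma adjusted p = 0.493). It was -0.25 without Control replicate 1, -0.29 without LS1 replicate 1 and -0.76 without LS1 replicate 3. The ratio of *Ppbp* to *Pf4* was 2.05, 1.79 and 2.27 in Control and 1.58, 1.59 and 2.06 in LS1, and the groups overlapped in it.

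*Itga2b* (ENSMUSG00000034664, chr11:102453297-102470122, minus strand) codes for integrin alpha IIb, known as CD41, which pairs with integrin beta 3 as the fibrinogen receptor of platelets. Normalized counts of 7383, 8011 and 5499 were found in Control and of 2571, 5091 and 5323 in LS1. The groups did not overlap, although LS1 replicate 3 was close to Control replicate 3. The Control mean was 6964 ± 1307 (SD, n = 3) and the LS1 mean 4328 ± 1526 (SD, n = 3), and the log2 fold change was -0.74 (SE 0.28, 95% interval -1.37 to -0.11, limma adjusted p = 0.320), or -0.40 without LS1 replicate 1. Its partner *Itgb3*, which osteoclasts and other cells also make, had a log2 fold change of -0.40 (SE 0.22, limma adjusted p = 0.466), and in LS1 replicate 1 it had 17642 normalized counts against 30159 to 35257 in the other 5 libraries.

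*Gp1ba*, *Gp1bb*, *Gp9* and *Gp5* code for the subunits of the GPIb-IX-V complex, with which platelets hold on to von Willebrand factor under flow. *Gp1ba* (ENSMUSG00000050675, chr11:70639122-70642036, plus strand), which codes for the alpha subunit that binds von Willebrand factor, had 1324, 1144 and 893.7 normalized counts in Control and 499, 799 and 896.4 in LS1. The groups overlapped only in that LS1 replicate 3 was just above Control replicate 3. Its log2 fold change was -0.64 (SE 0.24, 95% interval -1.17 to -0.11, limma adjusted p = 0.313), or -0.39 without LS1 replicate 1. *Gp1bb* (ENSMUSG00000050761, chr16:18620317-18622403, minus strand), the beta subunit linked to it, had 954.5, 919 and 920.2 normalized counts in Control and 431, 630.1 and 849 in LS1. The Control libraries were nearly equal to each other and all above the LS1 libraries. Its log2 fold change was -0.60 (SE 0.24, 95% interval -1.12 to -0.08, limma adjusted p = 0.324), or -0.35 without LS1 replicate 1. Exons of *Gp1bb* overlap those of *Sept5* and of *Gm49601* on the same strand, so reads of one gene may have been counted for another or for none. How reads in shared exons were counted is not given in the sources used here. *Sept5* averaged 7122 ± 1062 normalized counts in Control (SD, n = 3) and 7755 ± 728 in LS1 (SD, n = 3), with a log2 fold change of 0.13 (SE 0.15, limma adjusted p = 0.741).

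*Gp9* (ENSMUSG00000030054, chr6:87778072-87779768, plus strand) codes for the small subunit GPIX. It had 807, 611 and 670.3 normalized counts in Control and 228.5, 559 and 745 in LS1. LS1 replicate 1 stood far below all the others, while LS1 replicate 3 was within the Control range. The log2 fold change was -0.60 (SE 0.38, 95% interval -1.45 to 0.26, limma adjusted p = 0.537), with the largest standard error of the 9 genes, and it was -0.10 without LS1 replicate 1 and -0.95 without LS1 replicate 3. *Gp5* (ENSMUSG00000047953, chr16:30307685-30310779, minus strand), which codes for the subunit that thrombin can cleave, had 1214, 964.5 and 843 normalized counts in Control and 450.4, 752 and 933 in LS1. LS1 replicate 3 lay between Control replicates 2 and 3, and the other LS1 libraries were below all Control libraries. Its log2 fold change was -0.55 (SE 0.26, 95% interval -1.13 to 0.03, limma adjusted p = 0.411), and it was -0.25 without LS1 replicate 1.

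*Gp6* (ENSMUSG00000078810, chr7:4363965-4397744, minus strand) codes for glycoprotein VI, the signalling receptor of platelets for collagen. Its levels, as normalized counts, were 838.5, 637.5 and 625 in Control and 356, 519 and 529 in LS1. The groups did not overlap. The log2 fold change was -0.59 (SE 0.22, 95% interval -1.08 to -0.10, limma adjusted p = 0.313), and without LS1 replicate 1 it was -0.41.

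*Treml1* (ENSMUSG00000023993, chr17:48359916-48367176, plus strand) codes for TLT-1, a receptor of the alpha granule membrane that reaches the platelet surface on activation. It had 750, 505.5 and 693.5 normalized counts in Control and 203, 430 and 425 in LS1. The highest LS1 library was under the lowest Control library, and LS1 replicate 1 stood well below the other 5 libraries. The Control mean was 650 ± 128 (SD, n = 3) and the LS1 mean 353 ± 130 (SD, n = 3), or 0.521 of the Control level on the fitted scale. The log2 fold change was -0.94 (SE 0.30, 95% interval -1.60 to -0.28, limma adjusted p = 0.264), the largest of the 9 genes. DESeq2 gave an adjusted p of 0.0628, the lowest of any member under any test, and edgeR one of 0.270. Without LS1 replicate 1 the log2 fold change was -0.58.

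The members shared a pattern over the mice as well as a direction. LS1 replicate 1 was the lowest library in 9 of 9 members, and 26.8% of all genes tested were lowest there. Control replicate 1 was the highest library in 8 of 9 members, against 13% of all genes tested, and for *Itga2b* it was Control replicate 2. The median of the members relative to the Control mean was 0.26, -0.05 and -0.24 on the log2 scale in Control replicates 1, 2 and 3 and -1.14, -0.43 and -0.13 in LS1 replicates 1, 2 and 3. LS1 replicate 3 thus lay above Control replicate 3 by this measure. The summed level of the 9 genes as CPM, reads scaled to a common library total, was 544, 431 and 319 in Control and 209, 306 and 387 in LS1, where the groups overlapped. The plot of the members by library shows LS1 replicate 1 apart from the other mice for every gene but *Pf4*, which was as low in Control replicate 3.

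**Figure D2:**
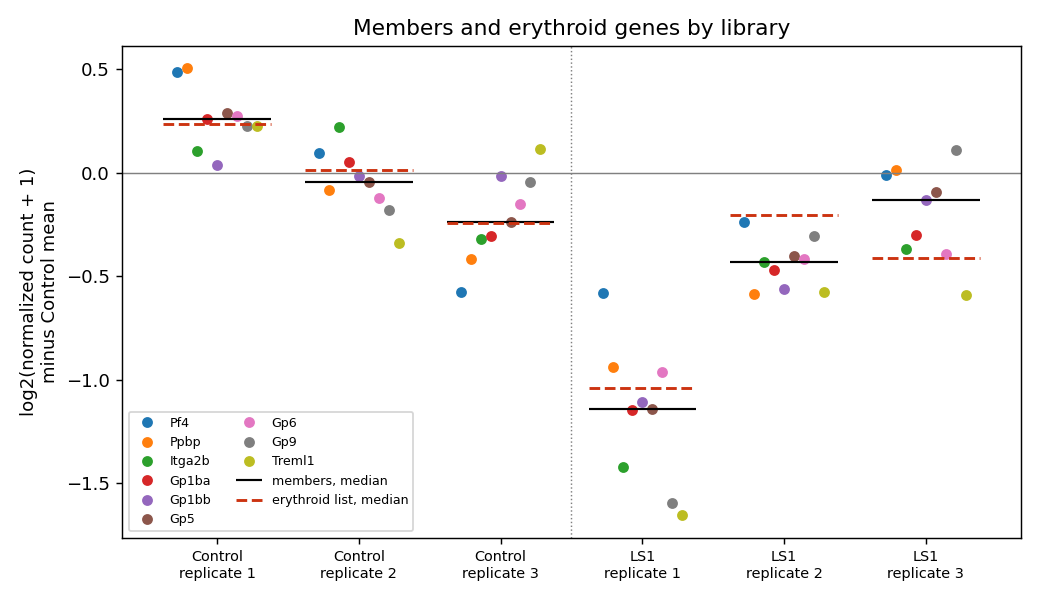
Each member in each library as log2(normalized count + 1) minus the mean of the 3 Control libraries, with solid black lines at the median of the 9 members and dashed red lines at the median of 12 erythroid genes. Both medians are lowest in LS1 replicate 1 (-1.14 and -1.04). In LS1 replicate 3 the points of *Pf4*, *Ppbp*, *Gp1ba*, *Gp5* and *Gp9* lie within the Control range of their gene. Those of *Itga2b*, *Gp1bb*, *Gp6* and *Treml1* lie below it.

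The genes outside the members with the most similar pattern over the 6 libraries were found by the root mean square difference between log2 profiles, each centred on its own mean, from the mean profile of the 9 members. The nearest was *Slc14a1*, a urea transporter, at 0.0777, with 6654, 6046 and 4490 normalized counts in Control and 2538, 4249 and 4889 in LS1. It was followed by *Gm44249*, *Hist1h2bf*, *1300017J02Rik*, *Mfsd2b*, *Pla2g4e*, *Gnaz*, *Alas2*, *Tspan33* and *Tfr2*, at 0.0830 to 0.0998. *Alas2*, the first enzyme of heme synthesis in red cell precursors, and *Tspan33* were on the list of erythroid genes described below, and none of the 10 was on the megakaryocyte lists. Among these 10 the log2 fold change lay between -0.70 and -0.46 and the limma adjusted p between 0.236 and 0.550. The members themselves lay at 0.0387 (*Gp5*) to 0.278 (*Pf4*) from their own mean profile. Of the 9 members, *Gp5* and *Gp1ba* (0.0682) were nearer to it than the tenth of these genes, and the other 7 were further away. Of the megakaryocyte lists, the nearest genes were *Tubb1* at rank 29 and *Vwf* at rank 30. The furthest were *Thbs1* at rank 16275 and *F13a1* at rank 16504, so these lists as a whole did not follow the profile.

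A further 33 genes of megakaryocytes and platelets were read from the same fit, in 4 lists by role. Of the 33, 25 were lower and 8 higher in LS1, and the median of their log2 fold changes was -0.20. A limma adjusted p under 0.05 was reached by 0 of them, and by 0 with edgeR. DESeq2 called 1, *Tal1*, against 2.58% of all genes tested. An unadjusted p under 0.05 from limma was found for 10 that were lower and 2 that were higher. Among the 19308 genes tested these counts were 1132 and 1367. The groups did not overlap for 9 of the 33. In 8 of these LS1 was below Control, against 8.94% of all genes tested. In 1, *Itga2*, named after its values were seen, LS1 was above Control, a direction for which no share of all genes was taken. Without LS1 replicate 1, 21 of the 33 were lower and the median was -0.10, and 21 were also lower with the Y-linked covariate.

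The lists differed in how close they came to the members. Of 7 regulators, 6 were lower, with a median of -0.53 that was -0.29 without LS1 replicate 1, and 0 passed the limma test. *Tal1*, which codes for a basic helix-loop-helix factor of both megakaryocytes and red cells, had 22176, 18549 and 15238 normalized counts in Control and 8789, 14109 and 12051 in LS1. Its groups did not overlap, with a log2 fold change of -0.69 (SE 0.19, limma adjusted p = 0.229, DESeq2 adjusted p = 0.0404). *Gata1*, the zinc finger factor that both lineages need, had 7103, 7340 and 7011 normalized counts in Control and 3165, 5830 and 5122 in LS1. These too did not overlap, and the log2 fold change was -0.65 (SE 0.20, limma adjusted p = 0.254). *Zfpm1*, the cofactor of GATA1 known as FOG1, and *Gfi1b*, a repressor, had log2 fold changes of -0.64 and -0.53 (limma adjusted p = 0.285 and 0.318). The regulator with a higher mean in LS1 was *Runx1*, also named after its values were seen, with a log2 fold change of 0.19 (limma adjusted p = 0.618). *Nfe2* and *Fli1*, named in the same way, had log2 fold changes of -0.33 and -0.09 (limma adjusted p = 0.530 and 0.864). In LS1 replicate 1 *Runx1* had 4534 normalized counts, against 3133 to 3469 in Control. *Fli1* had 2631 there, against 2069 to 2678 in Control. These regulators are also made by red cell precursors and other blood cells.

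Of 12 surface receptors, 9 were lower, with a median of -0.21, and 0 passed the limma test. *Clec1b*, the receptor for podoplanin, had 1040.3, 988 and 884 normalized counts in Control and 321, 668 and 762 in LS1. Its groups did not overlap, and its log2 fold change was -0.82 (SE 0.29, limma adjusted p = 0.295). *F2rl2*, a protease-activated receptor for thrombin, had a log2 fold change of -0.80 (SE 0.26, limma adjusted p = 0.272) and its groups did not overlap. *Mpig6b*, an inhibitory receptor of megakaryocytes, had one of -0.91 (SE 0.37, limma adjusted p = 0.345). Without LS1 replicate 1 the median of the receptors was -0.09, with 7 of 12 lower, and it was -0.37 without Control replicate 3 and -0.35 without LS1 replicate 3.

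Of 7 granule proteins, 4 were lower and 3 higher, with a median of -0.03, and 0 passed the limma test. *Vwf*, which codes for von Willebrand factor and is also made by endothelial cells, had 3791, 3101 and 2514 normalized counts in Control and 1569, 2153 and 2310 in LS1. Its groups did not overlap, and its log2 fold change was -0.64 (SE 0.19, limma adjusted p = 0.250). *Thbs1*, the matrix protein thrombospondin 1, and *F13a1*, a clotting factor subunit that macrophages also make, had higher means in LS1, with log2 fold changes of 0.45 and 0.43 (limma adjusted p = 0.337 for each). *Mmrn1*, the factor V carrier multimerin 1, had a log2 fold change of -0.22 (limma adjusted p = 0.653). The sign of this median changed with the setting, since it was 0.03 without LS1 replicate 1 and 0.09 with the Y-linked covariate.

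Of 7 signalling enzymes and cytoskeletal proteins, 6 were lower, with a median of -0.20, and 0 passed the limma test. The median was -0.08 with 5 of 7 lower without LS1 replicate 1, and 4 of 7 were lower without Control replicate 1 and with the Y-linked covariate. *Tubb1*, the beta tubulin of the platelet marginal band, had 3251, 2432 and 2405 normalized counts in Control and 990.3, 2143 and 2129 in LS1. Its groups did not overlap, and its log2 fold change was -0.69 (SE 0.29, limma adjusted p = 0.352). *Alox12*, the platelet lipoxygenase, had a log2 fold change of -0.49 (SE 0.20, limma adjusted p = 0.341). *Ptgs1* and *Tbxas1*, which act in sequence to make thromboxane, had log2 fold changes of 0.24 and -0.21 (limma adjusted p = 0.583 and 0.598). The plot of fold changes shows the members and the 4 lists with their intervals.

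**Figure D3:**
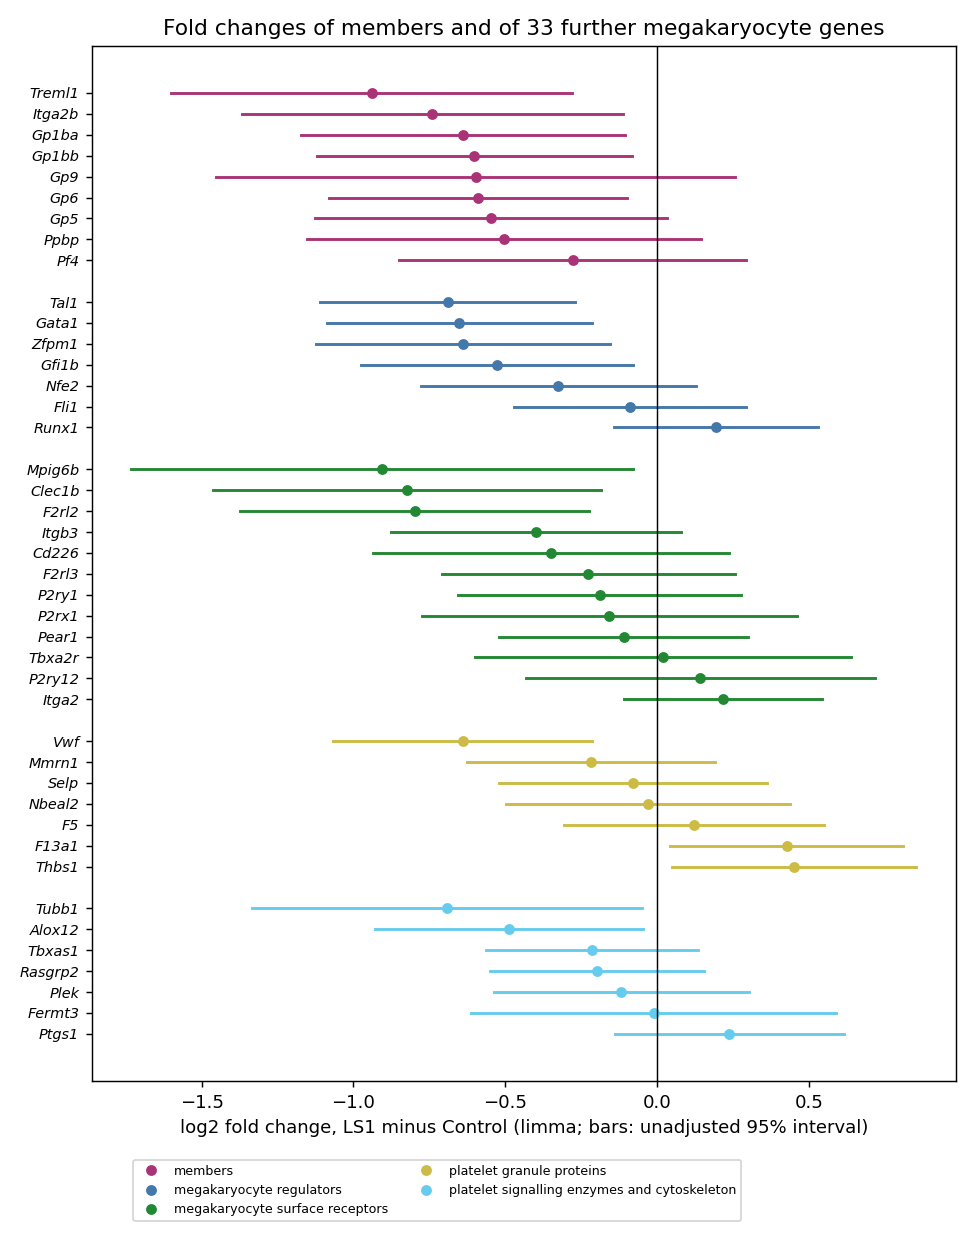
Log2 fold change of LS1 against Control from limma for the 9 members and 33 further genes of megakaryocytes and platelets, with unadjusted 95% intervals. The 9 members lie between -0.94 and -0.28. Of the 33 further genes, whose median is -0.20, 25 lie to the left of 0 and 8 to the right. *Tal1*, *Gata1*, *Clec1b* and *Vwf* lie in the range of the members, and *Thbs1* (0.45) and *F13a1* (0.43) lie furthest to the right.

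Marker genes of the other cells in the epiphysis were read in the same way. Of 13 erythroid genes listed, 12 matched a symbol of the annotation. These were lower in 12 of 12 cases, with a median log2 fold change of -0.53, and 0 of them had a limma adjusted p under 0.05. An unadjusted p under 0.05 from limma with a lower level in LS1 was found for 6, against 5.86% of all genes tested. The summed level of the 12 genes was 5612 to 7205 CPM in Control and 3790 to 6246 in LS1. Relative to the Control mean, their median was 0.23, 0.01 and -0.24 in Control replicates 1, 2 and 3 and -1.04, -0.20 and -0.41 in LS1 replicates 1, 2 and 3. LS1 replicate 1 was thus lowest for erythroid genes as for the members. LS1 replicates 2 and 3 stood in the opposite order in the members (-0.43 and -0.13). Without LS1 replicate 1 the median log2 fold change of the erythroid genes was -0.29. The part of red cell precursors in the pattern of the regulators was not tested.

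Markers of the other marrow and tissue cells differed in direction, and B cell genes were mostly lower, as the members were. For the 12 B cell genes the median was -0.47 and 11 were lower. An unadjusted p under 0.05 from limma with a lower level in LS1 was found for 8, against 5.86% of all genes tested. The groups did not overlap for 5, each with LS1 lower, against 8.94% of all genes tested. Unlike in the members, LS1 replicate 2 was lowest (-0.84 relative to the Control mean, against -0.39 and -0.29 in LS1 replicates 1 and 3). The summed level of the B cell genes was 773 to 797 CPM in Control and 464 to 709 CPM in LS1. Of 12 neutrophil genes, 9 were higher (median 0.19), and of 11 macrophage genes tested, 10 were higher (median 0.28). Their summed levels were 3375 to 4611 CPM in Control and 4201 to 4927 CPM in LS1 for neutrophil genes, and 427 to 560.1 CPM and 534 to 634 CPM for macrophage genes. Of 12 chondrocyte genes, 11 were higher, with a median of 0.54, and their summed level was 42351 to 50091 CPM in LS1 against 32723 to 38357 in Control. The median was 0.06 for 11 endothelial genes, 0.005 for 10 osteoblast genes and 0.61 for 6 mast cell genes. Limma called 0 genes of each of these lists. DESeq2 called 6 chondrocyte genes, 2 B cell genes and 1 osteoblast gene, against 2.58% of all genes tested. In 7 of the 12 chondrocyte genes the lowest LS1 library was above the highest Control library, and no share of all genes was taken in that direction. With the exception of the macrophage gene *Vsig4*, which was too low to be tested, every marker of these lists had reads in each library. The part of these differences in the values of the members was not tested. The map of list medians by library sets the members beside all these lists.

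**Figure D4:**
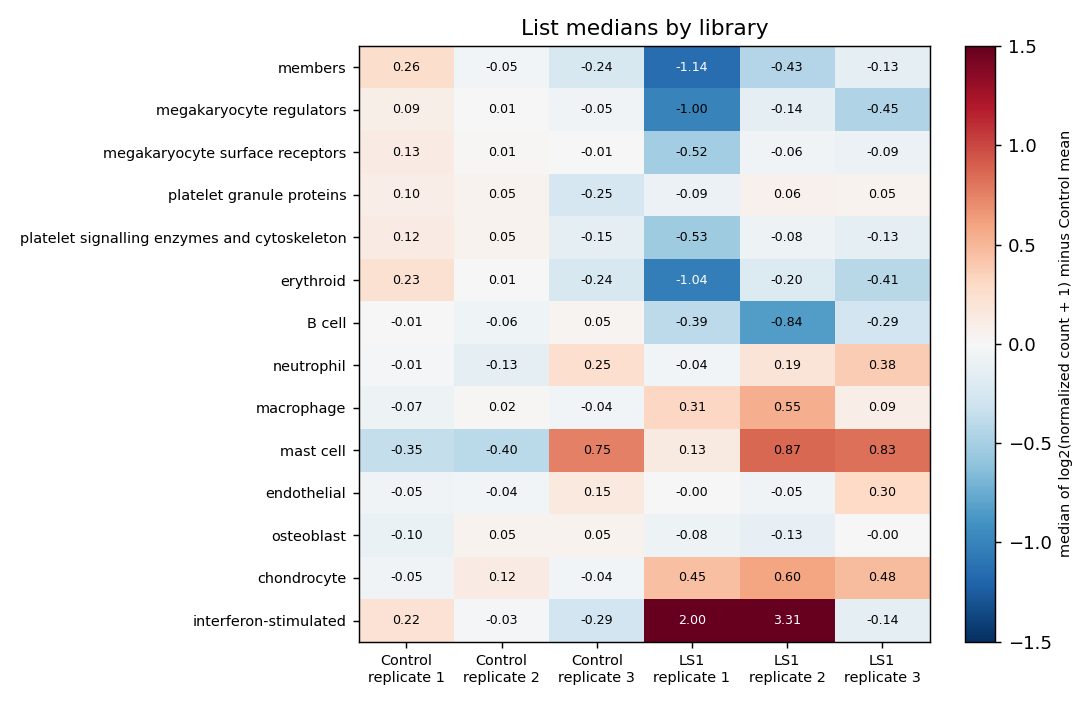
Median over each gene list of log2(normalized count + 1) minus the Control mean, by library, with blue for lower and red for higher values and colour ending at 1.5. The members and the erythroid list are lowest in LS1 replicate 1 (-1.14 and -1.04), the B cell list in LS1 replicate 2 (-0.84), and the interferon-stimulated genes are high in LS1 replicates 1 and 2 alone (2.004 and 3.31).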

How the data were processed

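Polyadenylated RNA was sequenced from tibial epiphyses of 6 mice, 3 Control and 3 LS1. According to the methods and processing notes, HISAT2 2.0.2 was used for alignment to GRCm38, featureCounts 1.4.6 for counting per gene and DESeq2 for analysis. Whether counting used strand is not given in the sources used here. The authors deposited a signal for each gene, which is its count over the size factor of its library. Dividing by the value of 1 read (0.870 to 1.11) gave whole reads for 100% of values within 0.01, and these reads entered the count tests. In Control replicate 1 the value of 1 read was too close to 1 for this whole-number check to test the recovery. The size factor recomputed from the recovered reads of that library was 0.991, as was the one from the deposited values.

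Genes with a mean of at least 20 reads (19308) were compared on the scale log2(value + 1). The tool was limma 3.58.1 (R 4.3.3), run with trend, robust moderation and Benjamini-Hochberg adjustment. The alternatives were edgeR 4.0.16, DESeq2 1.42.0, limma-voom, TMM, other filters and pseudocounts, a replicate block, leaving out each library, edgeR without Control replicate 1 and a Y-linked covariate, the last pair chosen after the data were seen. The fits were tested on simulated data. Replicates of a group differed by 42.9 to 164 chi-square units per degree of freedom, so none was a repeated library. Gene positions came from GENCODE on GRCm38 and upstream sequences from RefSeq on GRCm38.p6, where 9 of 9 members matched. Members and gene lists were chosen with earlier results of these data known. The text names every member, up to 4 genes with the smallest p and each called gene of a megakaryocyte list, and the 10 genes of most similar pattern. *Itga2*, *Runx1*, *Nfe2* and *Fli1* were named after their values were seen. A gene of the planned lists is not reported here.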

Additional observations from a re-analysis of the deposited data

How the results depend on the processing

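In 17 alternatives to the limma comparison, 0 of the 9 members reached an adjusted p under 0.05, and all 153 log2 fold changes, 1 per member and alternative, were below 0. The lowest adjusted p was 0.0628, for *Treml1* with DESeq2. The median log2 fold change of the members ran from -0.81 to -0.35 when each library was left out in turn. The number of all genes called, 14 with limma, was 459 with DESeq2, 7 with edgeR, 8 with limma-voom, 45 without a filter on reads, 9 with a mean of at least 100 reads, and 5 to 324 when each library was left out. It was 5 with edgeR on the 5 libraries without Control replicate 1, an alternative chosen after the data were seen, in which 0 members had an unadjusted p under 0.05, against 4.42% of all genes tested with a lower level in LS1. The cause of these differences was not tested. Of the 33 further genes DESeq2 called 1 (*Tal1*) and each other alternative 0.

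With the replicate number as a block, limma called 12 genes and 0 members, the median of the members was -0.60 and 4 members had an unadjusted p under 0.05, against 7.67% of all genes tested with a lower level in LS1. Whether the numbers pair the mice was not settled. The deviations from the group means correlated at 0.0536, 0.0211 and 0.224 within the pairs. In pair 3 alone did each library correlate best with its own number, and both libraries of that pair were male-type. With 3 mice in a group, these correlations cannot exclude a pairing.

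With 3 mice in a group and the spread between LS1 mice seen here, the 95% intervals of the members reached from -1.60 to 0.29, so that neither a large decrease nor, for *Pf4*, *Ppbp*, *Gp5* and *Gp9*, a small increase lay outside them. Reads shared by *Gp1bb* with *Sept5* or *Gm49601* could not be separated.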
